A study of Mus musculus with 6 samples.

Results

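Voltage-gated calcium and sodium channel genes were examined in skin cells of newborn mice. They were chosen by symbol: every gene of the count files named as an alpha1, beta, alpha2delta or gamma subunit of voltage-gated calcium channels (Cacna1, Cacnb, Cacna2d and Cacng genes) or as an alpha or beta subunit of voltage-gated sodium channels (Scn genes). This gave 40 of 24453 genes, 26 of calcium and 14 of sodium channels. No expression value selected single genes, but the family was proposed with results of this same comparison known, so that counts over its members describe these data and are not independent evidence. RNA sequencing was done on 6 libraries of sorted cells from back skin at postnatal day 0, 3 labelled Ring1a/b 2KO (genotype Ring1a-/- Ring1b-/-) and 3 labelled control. The gene Ring1 encodes RING1A and Rnf2 encodes RING1B. Either serves as the ubiquitin ligase subunit of Polycomb repressive complex 1, which acts on chromatin and keeps developmental genes silent. The labels name neither strain, nor floxed allele, nor Cre driver, and do not say whether each library came from its own animal, so that p-values measure the spread between libraries, which may be technical.

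Voltage-gated calcium channels open on depolarization and let calcium into the cell. The pore is an alpha1 subunit, a cytoplasmic beta subunit and an extracellular alpha2delta subunit help it reach the membrane and shape its gating, and gamma subunits either join the skeletal muscle channel or serve as auxiliary subunits of AMPA-type glutamate receptors. Voltage-gated sodium channels consist of an alpha subunit that forms the pore and carries the upstroke of action potentials, and of beta subunits, small membrane proteins that modulate gating and act in cell adhesion. Both families are best known from neurons, muscle and endocrine cells, and keratinocytes are not electrically excitable in that sense.

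The libraries labelled 2KO held 24.8 to 29.9 M counts (M, mega) and control-labelled ones 28.2 to 30.8 M. Levels are given in CPM, counts per M counts after TMM scaling (a correction for library composition), on which scale 1 count was worth 0.0334 to 0.0392 CPM in 2KO and 0.0323 to 0.0355 CPM in control libraries. Ring1 was at 1.84, 7.34 and 14.1 CPM in 2KO-labelled libraries and at 19.5, 22.4 and 3.37 CPM in control-labelled ones. Control replicate 3 thus went against its label, and 2KO replicate 3 lay above it and above the other 2KO libraries. Rnf2 did not differ by the test (edgeR quasi-likelihood adjusted p = 0.615). The labels do not say which exons the knockout removes. Groups are therefore called by their labels, and each direction below is between libraries so labelled. Xist was high in 2KO replicates 1 and 2 and in control replicate 3 (4550 to 5360 CPM) and at most 10.4 CPM in the other libraries, so that pups of both sexes are unevenly spread over the groups. The labels call the cells hair follicle cells, while the attached protocol describes a gate for interfollicular epidermis. In these bulk samples a change in the share of a cell type and a change in RNA per cell cannot be told apart.

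Calcium and sodium channel genes were higher in 2KO-labelled libraries for 11 members and lower for none at an adjusted p under 0.05 (edgeR quasi-likelihood test, Benjamini-Hochberg adjustment over 14972 tested genes). Over all tested genes 6.61% were called higher and 2.42% lower, 9.02% in all. Of the 40 members 22 had enough counts to be tested, 11 did not pass and 18 were too low to test. Each of the 22 was over the filter level in at least 1 library of either group. At an unadjusted p under 0.05 the same fit had 14 members higher and 1, Scn4b, lower, and neither DESeq2 nor limma-voom called any member lower. Among those that rose were the calcium pore genes Cacna1c, Cacna1b, Cacna1g and Cacna1h, the auxiliary genes Cacnb2 and Cacna2d1, the gamma genes Cacng4 and Cacng7, and the sodium pore gene Scn8a. The median log2 fold change of the tested members was 2.12, against -0.02 over all tested genes. All 40 genes together summed to 394 to 422 CPM in 2KO and 117 to 169 CPM in control libraries. With both replicate 3 libraries left out 7 members were called, and the calls lost included those of Cacna1b (edgeR adjusted p = 0.0565), Cacnb2 (0.232) and Scn8a (0.126), in a comparison where high Xist follows the group label.

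**Figure D1:**
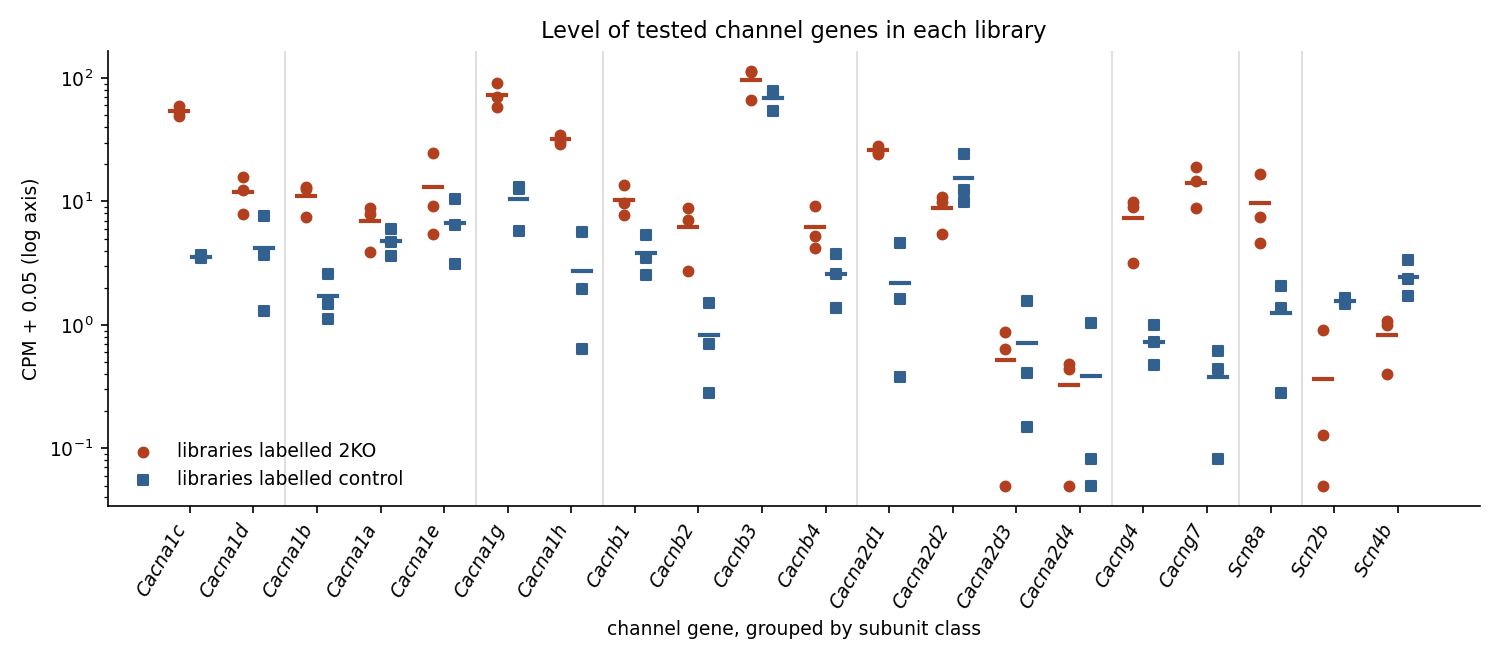
Level (CPM plus 0.05, log axis) of tested channel genes in each library, with 2KO libraries as circles left of control libraries as squares, and the group mean as a bar. For Cacna1c the 2KO libraries lie between 49.2 and 59.8 CPM and the control libraries between 3.45 and 3.66 CPM, while for Scn2b and Scn4b the 2KO libraries lie below.

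Sequence at the start sites is shown for members whose data bear on it, since CpG-rich promoters are the usual sites of Polycomb complexes in mammals. The RefSeq promoter table (build GRCm38.p6, 250 bases before to 50 bases after each start) held 41 windows for 30 members, 6 of them among the 11 that rose. The windows below belong to Cacna1c, Cacna2d1 and Scn8a, which rose and have a start in CpG-rich sequence, and to the neighbours Cacng7, which rose, and Cacng8, which was close to silent. CpG dinucleotides are in capitals.
Cacna1c, chr6:119108446-119108745, minus strand: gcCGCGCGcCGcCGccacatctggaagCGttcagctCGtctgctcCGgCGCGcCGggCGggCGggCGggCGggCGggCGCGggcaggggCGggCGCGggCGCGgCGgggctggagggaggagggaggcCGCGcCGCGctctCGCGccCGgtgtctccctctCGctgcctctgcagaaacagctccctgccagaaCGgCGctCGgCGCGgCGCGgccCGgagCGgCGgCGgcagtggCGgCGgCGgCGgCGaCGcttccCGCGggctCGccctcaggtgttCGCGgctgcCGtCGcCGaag
Cacna2d1, chr5:15934441-15934740, plus strand: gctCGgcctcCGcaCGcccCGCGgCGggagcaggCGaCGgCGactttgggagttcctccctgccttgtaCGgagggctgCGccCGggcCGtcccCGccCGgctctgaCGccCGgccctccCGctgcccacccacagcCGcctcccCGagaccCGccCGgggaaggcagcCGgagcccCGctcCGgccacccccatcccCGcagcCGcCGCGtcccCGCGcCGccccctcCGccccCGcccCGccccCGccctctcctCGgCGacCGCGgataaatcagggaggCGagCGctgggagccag
Scn8a, chr15:100870395-100870694, plus strand: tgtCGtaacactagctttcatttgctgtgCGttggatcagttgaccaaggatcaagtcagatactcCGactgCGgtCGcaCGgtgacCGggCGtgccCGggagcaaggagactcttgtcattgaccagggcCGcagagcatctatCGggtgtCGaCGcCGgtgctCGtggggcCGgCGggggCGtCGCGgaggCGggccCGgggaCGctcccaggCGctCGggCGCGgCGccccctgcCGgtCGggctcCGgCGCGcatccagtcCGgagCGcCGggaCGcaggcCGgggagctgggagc
Cacng7, chr7:3332575-3332874, plus strand: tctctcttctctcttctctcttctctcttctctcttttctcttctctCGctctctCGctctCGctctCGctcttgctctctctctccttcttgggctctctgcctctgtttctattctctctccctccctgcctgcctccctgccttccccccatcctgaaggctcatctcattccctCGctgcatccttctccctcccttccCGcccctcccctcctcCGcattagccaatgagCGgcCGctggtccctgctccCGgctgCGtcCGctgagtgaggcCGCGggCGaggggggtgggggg
Cacng8, chr7:3393792-3394091, plus strand: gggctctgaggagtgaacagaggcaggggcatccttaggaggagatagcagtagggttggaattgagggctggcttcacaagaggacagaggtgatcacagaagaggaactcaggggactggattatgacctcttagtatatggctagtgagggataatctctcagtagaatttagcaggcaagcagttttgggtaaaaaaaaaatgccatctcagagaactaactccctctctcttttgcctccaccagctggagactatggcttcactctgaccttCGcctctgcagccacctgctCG

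These windows held 57 CpG in Cacna1c, 42 in Cacna2d1, 38 in Scn8a, 15 in Cacng7 and 2 in Cacng8. The window of Cacna1c had more CpG than 99.8% of all 32851 windows in the table, and that of Cacng8 more than 14.1%. The listed start of Cacng8 lies inside the gene as GENCODE vM21 places it, beginning at 3390683 on chromosome 7. Its 2 CpG therefore may not describe the promoter, and no contrast with Cacng7 is drawn. The windows shown for Cacna1c and Scn8a also lie inside their genes, which begin at 119196418 on chromosome 6 and 100869858 on chromosome 15. For Cacna1c the window at that outer end is the one with 3 CpG. Cacna1c has a further start on either side, with 7 CpG and 3 CpG in their windows, and Scn8a has a second start with 12 CpG in its window. The counts do not tell which start was used. Taking for each gene its window with the most CpG, the 6 members that rose had a median of 36.5 CpG (15 to 57), the 9 tested members that did not pass had a median of 34 (2 to 63), and the 15 untested members had a median of 9 (2 to 23). Among those that did not pass, and whose sequences are not shown, Cacna1d had 63 CpG, Cacna2d2 43 and Cacna2d3 41. The median over all 27025 genes of the table was 8. At least 20 CpG were found in 5 of 6 members that rose, in 7 of 9 that did not pass and in 2 of 15 untested members, against 28.8% of all genes. Both sets of tested members thus had medians above that of the untested ones, with ranges that overlapped. Searched on both strands, TATAAA was in 4.88% of the members' windows and 13.6% of all windows. The GC box GGGCGG was in 39.0% of the members' windows and 35.7% of all windows, and CCAAT in 24.4% of the members' windows and 37.4% of all windows. A match of letters is a description and not a binding site.

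**Figure D2:**
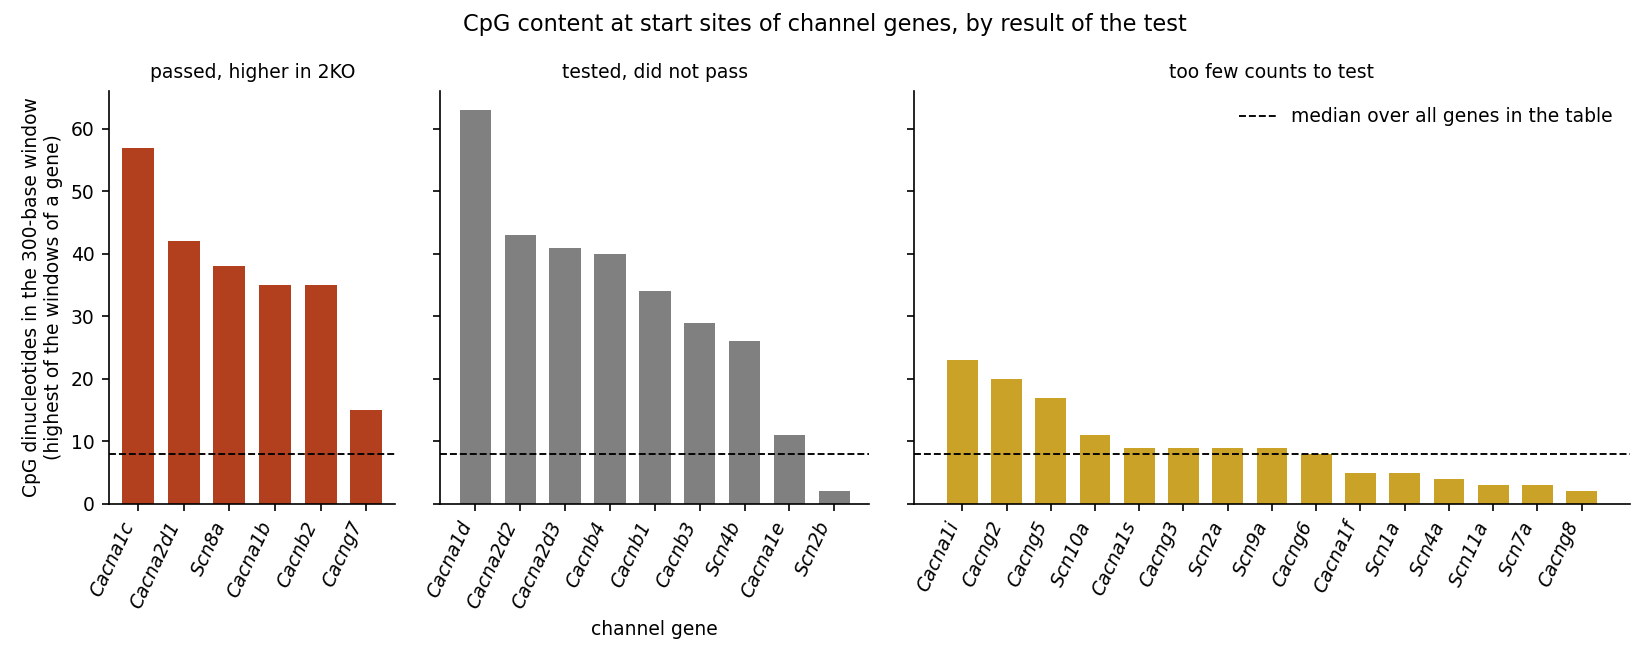
Number of CpG dinucleotides in the 300-base window around the start site (for each gene its window with the most) for 30 channel genes, by result of the test between 2KO and control libraries; the dashed line is the median of 8 over all genes. Members that rose have 15 to 57 CpG, and untested members 2 to 23.

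Among L-type calcium channels, which open at strong depolarization and drive calcium entry in heart, smooth muscle, endocrine cells and neurons, Cacna1c rose. Cacna1c (chromosome 6, 118587240 to 119196418, minus strand) stood at 49.2, 59.8 and 53.0 CPM in 2KO-labelled libraries, against 3.47, 3.45 and 3.66 CPM in control-labelled ones. The groups were far apart, with a ratio of means of 15.3 and a log2 fold change of 3.93 (SE 0.23; edgeR, adjusted p = 3.81e-05). The call held in all 15 alternatives. Cacna1d, the L-type channel of pacemaker and sensory cells, was at 15.6, 7.91 and 12.4 CPM in 2KO and at 3.62, 7.62 and 1.24 CPM in control libraries, with a narrow gap between 2KO replicate 2 and control replicate 2. It did not pass (log2 fold change 1.53, SE 0.58, edgeR adjusted p = 0.159). It did pass with DESeq2 (adjusted p = 0.0488) and without control replicate 2 (log2 fold change 2.30, edgeR adjusted p = 0.0456). Exons of Cacna1d share 589 bases with those of Chdh on the other strand, which had 2176 to 5754 counts in 2KO and 4850 to 6434 in control libraries, so that its counts could hold reads of Chdh. Cacna1s, the skeletal muscle pore, and Cacna1f, the retinal pore, were close to silent, with 4 and 9 counts over the 2KO libraries and 0 and 4 over the control libraries.

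T-type channels open near the resting potential and support rhythmic firing, and both tested members rose. Cacna1g (chromosome 11, 94408391 to 94474198, minus strand) stood at 90.9, 70.7 and 57.9 CPM in 2KO-labelled libraries and at 12.6, 13.1 and 5.69 CPM in control-labelled ones. Its log2 fold change was 2.81 (SE 0.35, edgeR adjusted p = 0.00162). Cacna1h (chromosome 17, 25374285 to 25433783, minus strand) stood at 29.4, 34.8 and 31.0 CPM in 2KO and at 1.91, 5.62 and 0.588 CPM in control libraries. The 2KO libraries lay close together and the control libraries spread widely, with a log2 fold change of 3.55 (SE 0.65, edgeR adjusted p = 0.0097), which was 4.67 without control replicate 2. Cacna1h shares 158 exon bases with Tpsg1 on the other strand, which had 0 counts over the 2KO libraries and 1 over the control libraries. Both calls held in all 15 alternatives. The third T-type gene, Cacna1i, had 1 count over the 2KO libraries and 0 over the control libraries.

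The neuronal P/Q-, N- and R-type channels trigger transmitter release at synapses, and among them Cacna1b, the N-type pore, rose. Cacna1b (chromosome 2, 24603887 to 24763152, minus strand) stood at 13.1, 12.6 and 7.41 CPM in 2KO-labelled libraries and at 1.06, 2.52 and 1.44 CPM in control-labelled ones (edgeR log2 fold change 2.72 with SE 0.46, adjusted p = 0.0066). Cacna1a, the P/Q-type pore of many central synapses, overlapped between the groups, with 3.88, 8.87 and 7.80 CPM in 2KO and 3.58, 5.97 and 4.67 CPM in control libraries (edgeR adjusted p = 0.546). Cacna1e, the R-type pore, was at 24.7, 5.44 and 9.06 CPM in 2KO and at 6.42, 10.4 and 3.07 CPM in control libraries, so that 2KO replicate 1 alone exceeded every control library (edgeR adjusted p = 0.401).

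Summed per kilobase of exon, the scale on which different genes can be compared, the calcium pore genes reached 18.2, 16.3 and 14.2 CPM per kb in 2KO-labelled libraries and 2.58, 3.83 and 1.57 CPM per kb in control-labelled ones. T-type genes made up 64.4 ± 1.51% of that sum in 2KO and 48.1 ± 8.16% in control libraries (SD, n = 3 each). P/Q-, N- and R-type genes made up 13.7 ± 0.963% in 2KO and 33.4 ± 8.71% in control libraries, again without overlap. The L-type share overlapped, at 21.9 ± 2.48% in 2KO and 18.4 ± 1.49% in control libraries. Shares of a sum move together by construction, and with 3 libraries against 3 an exact permutation test cannot pass at 0.05, so that no test is given.

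**Figure D3:**
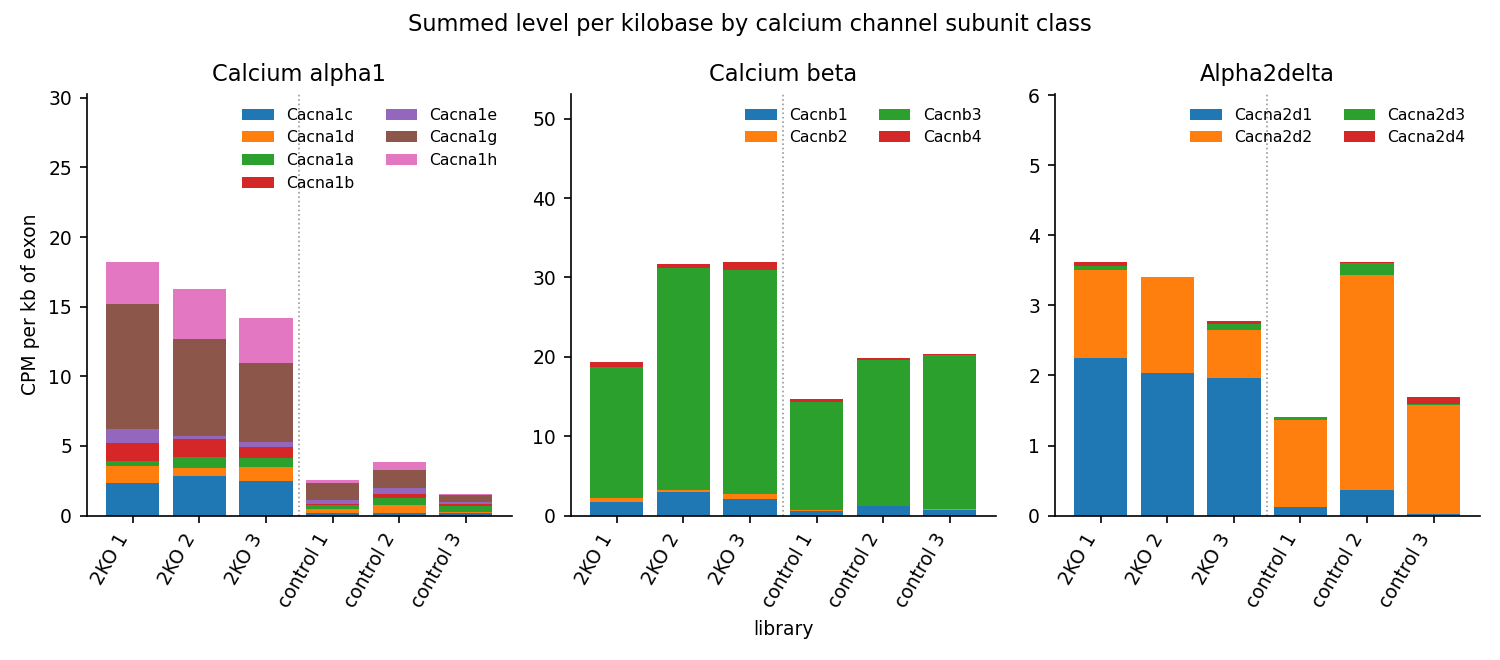
Level per kilobase of exon (CPM per kb) summed within each calcium channel subunit class shown, 2KO libraries left of control libraries in each panel, with colours for single genes; pore genes with next to no counts are left out. The calcium pore sum is 14.2 to 18.2 in 2KO and 1.57 to 3.83 in control libraries, and Cacnb3 fills most of every bar of the beta class.

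All 4 beta subunit genes were detected in every library, and 1 of them rose. Cacnb3 was the most abundant member of the whole family per kilobase, at 24.2 ± 6.62 CPM per kb in 2KO and 17.1 ± 3.14 CPM per kb in control libraries (SD, n = 3 each). In CPM it was at 66.4, 112 and 113 in 2KO and at 54.4, 73.8 and 77.9 in control libraries, and the groups overlapped (log2 fold change 0.50, SE 0.25, edgeR adjusted p = 0.287). Cacnb3 made up 87.3 ± 1.61% of the beta class per kilobase in 2KO and 93.5 ± 1.68% in control libraries. Cacnb2, the beta subunit of heart muscle channels (chromosome 2, 14603088 to 14987908, plus strand), stood at 7.09, 2.67 and 8.82 CPM in 2KO and at 1.45, 0.645 and 0.229 CPM in control libraries. Its log2 fold change was 2.99 (SE 0.75, edgeR adjusted p = 0.0366). It was 3.83 without control replicate 1. The call of Cacnb2 was lost with limma-voom (adjusted p = 0.0553) and without control replicate 2 (edgeR adjusted p = 0.0994), control replicate 3 (0.0861), 2KO replicate 1 (0.0762) or 2KO replicate 3 (0.116).

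Cacnb1 and Cacnb4 did not pass, although their groups did not overlap. Cacnb1, the beta subunit of the skeletal muscle channel, was at 7.68, 13.6 and 9.60 CPM in 2KO and at 2.48, 5.32 and 3.46 CPM in control libraries. With a log2 fold change of 1.45 (SE 0.41, edgeR adjusted p = 0.0579) it lay just outside the threshold, as Scn8a (0.0389) lay just inside it. Cacnb1 passed with DESeq2 (adjusted p = 0.00645) and with no low-count filter (0.0453). Cacnb4, a beta subunit of brain channels, was at 5.21, 4.14 and 9.17 CPM in 2KO and at 3.72, 2.55 and 1.31 CPM in control libraries (log2 fold change 1.29, SE 0.53, edgeR adjusted p = 0.19). Without overlap and with 2KO higher were 14 of the 22 tested members, where all tested genes gave 15.2%.

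Within the alpha2delta class, whose first 2 members bind gabapentin drugs, the leading gene differed between the groups. Cacna2d1 (chromosome 5, 15934691 to 16374511, plus strand) stood at 27.9, 25.3 and 24.4 CPM in 2KO-labelled libraries and at 1.56, 4.52 and 0.327 CPM in control-labelled ones. It rose with a log2 fold change of 3.59 (SE 0.71, edgeR adjusted p = 0.0133), which was 4.78 without control replicate 2. Cacna2d2 was at 9.92, 10.9 and 5.41 CPM in 2KO and at 9.89, 24.4 and 12.4 CPM in control libraries, overlapping and short of the threshold (log2 fold change -0.83, SE 0.41, edgeR adjusted p = 0.287). Per kilobase, Cacna2d1 made up 64.3 ± 5.66% of the class in 2KO and 6.85 ± 4.62% in control libraries, and Cacna2d2 33.1 ± 7.96% in 2KO and 88.3 ± 3.34% in control libraries (SD, n = 3 each). The class sum itself overlapped, at 3.61, 3.41 and 2.78 CPM per kb in 2KO and 1.41, 3.61 and 1.70 CPM per kb in control libraries. Cacna2d3 and Cacna2d4 were at most 1.52 CPM in any library. Of the 31 control counts of Cacna2d4, 30 came from control replicate 3.

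Of the gamma genes, Cacng7 and Cacng4 rose and the others were too low to test. Both encode TARPs, auxiliary subunits of AMPA receptors in brain. Cacng7 (chromosome 7, 3332955 to 3368221, plus strand) stood at 18.8, 14.5 and 8.74 CPM in 2KO-labelled libraries and at 0.567, 0.0323 and 0.392 CPM in control-labelled ones. Its log2 fold change of 5.40 (SE 0.74, edgeR adjusted p = 0.00249) was the largest of the tested members, with 1137 counts over the 2KO and 29 over the control libraries, and it was 6.04 without control replicate 1. Per kilobase it was at 5.74 ± 2.07 CPM per kb in 2KO and 0.135 ± 0.112 CPM per kb in control libraries (SD, n = 3 each). Cacng4 (chromosome 11, 107732357 to 107794557, minus strand) stood at 8.90, 9.77 and 3.10 CPM in 2KO and at 0.674, 0.420 and 0.948 CPM in control libraries. Its log2 fold change was 3.41 (SE 0.61, edgeR adjusted p = 0.00861). Both calls held in all 15 alternatives. Cacng3 and Cacng6 had 0 counts in all 6 libraries, which allows up to 0.037 CPM in 2KO and 0.0334 CPM in control libraries (3 counts over a group, counting error alone).

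Among the sodium pore genes, Scn8a rose. Scn8a, a pore of nodes of Ranvier in axons (chromosome 15, 100869858 to 101045938, plus strand), stood at 16.7, 4.60 and 7.45 CPM in 2KO and at 1.31, 2.03 and 0.229 CPM in control libraries. Its log2 fold change was 3.0 (SE 0.76, edgeR adjusted p = 0.0389). It was 2.34 without 2KO replicate 1 and 3.64 without control replicate 2. The call of Scn8a was lost with limma-voom (adjusted p = 0.0508), with Xist as a covariate (edgeR adjusted p = 0.0818) and without control replicate 1 (0.0932), control replicate 3 (0.0601), 2KO replicate 1 (0.121) or 2KO replicate 3 (0.0741).

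Of the sodium beta subunit genes, Scn2b and Scn4b lay lower in 2KO-labelled libraries without passing the test. Scn2b was at 0.0784, 0 and 0.862 CPM in 2KO and at 1.42, 1.61 and 1.47 CPM in control libraries (log2 fold change -2.26, SE 1.24, edgeR adjusted p = 0.339). Scn4b was at 0.353, 1.03 and 0.941 CPM in 2KO and at 3.30, 1.65 and 2.29 CPM in control libraries (log2 fold change -1.63, SE 0.69, edgeR adjusted p = 0.207). The groups of both genes lay apart, with 2KO lower, and neither was called lower in any alternative. Such a separation with 2KO lower was found in 13.1% of all tested genes.

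**Figure D4:**
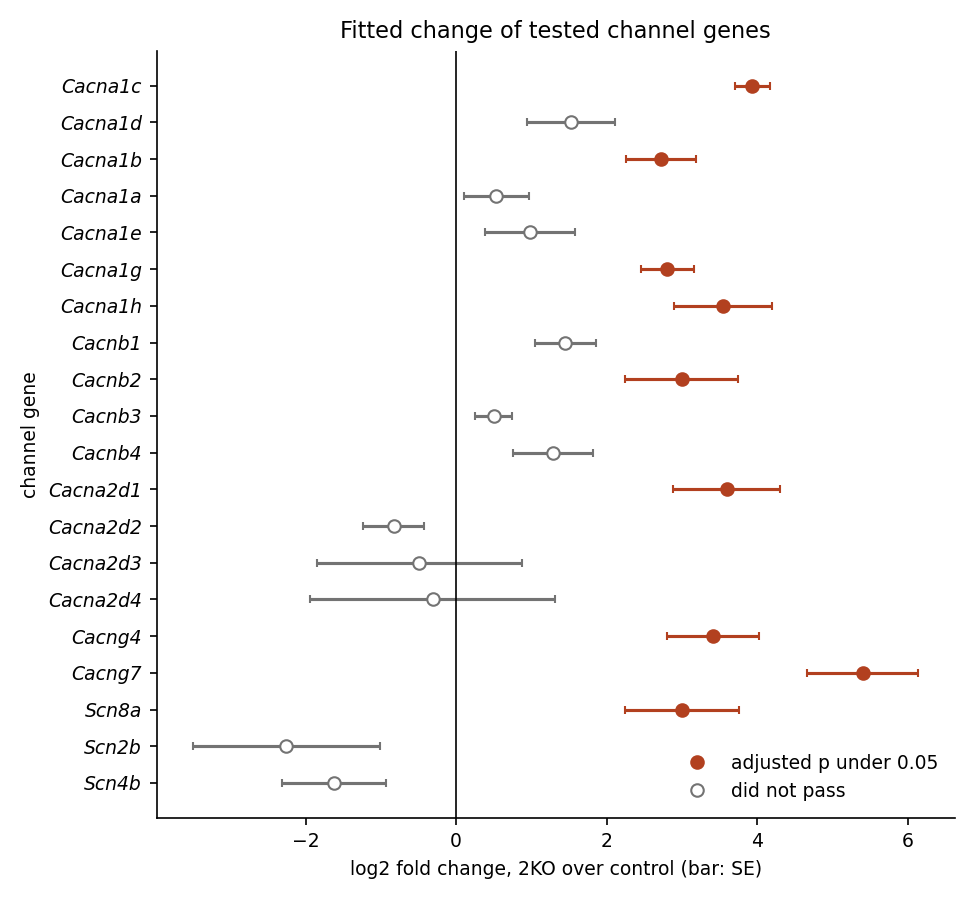
Log2 fold change of 2KO over control for tested channel genes, by subunit class, with the SE as a bar and filled points for an adjusted p under 0.05. The filled points lie between 2.72 (Cacna1b) and 5.40 (Cacng7), and the 5 members below 0 did not pass.

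Several genes that rose lie beside relatives too low to test or short of the threshold. Distances are those of GENCODE vM21 (GRCm38), with no other protein-coding gene in between. On chromosome 7, Cacng7 lies 22.5 kb from Cacng8, which had 4 counts over the 2KO and 6 over the control libraries, and Cacng6 follows after 8.55 kb. On chromosome 11, Cacng4 lies between Cacng1, a gamma subunit of the skeletal muscle channel at 15.8 kb, and Cacng5 at 80 kb. Cacng1 had 9 counts over the 2KO and 8 over the control libraries, and Cacng5 had 27 over the 2KO libraries, all in replicate 2, and 13 over the control libraries. Cacna1c lies 40.1 kb from Cacna2d4, which did not pass (edgeR adjusted p = 0.95).

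The sodium pore cluster of chromosome 2, with Scn3a, Scn2a, Scn1a, Scn9a and Scn7a, held no member past the count filter. Scn1a, Scn2a and Scn3a, pores of central neurons, had 7, 3 and 32 counts over the 2KO libraries and 0, 3 and 11 over the control libraries. Scn9a, a pore of pain-sensing neurons, had 26 counts, all in 2KO replicate 3, and 0 in the other 5 libraries. Scn7a, which encodes a sodium-sensing channel, had 1 count in each 2KO library and 23, 13 and 10 counts in the control libraries. The ratio of 2KO to control was 0.0723 (95% counting interval 0.0144 to 0.225), and with no low-count filter it did not pass (edgeR adjusted p = 0.209). Scn4a, the skeletal muscle pore on chromosome 11, had 0 counts in all 2KO libraries and 14, 0 and 19 in the control libraries, so that it was at least 9.92-fold lower against a floor of 3 counts over the 2KO group, and did not pass either (edgeR adjusted p = 0.165 with no low-count filter). On chromosome 9, Scn10a and Scn11a, sodium pores of sensory neurons, lie 34.4 kb apart. Scn10a had 1 count and Scn11a 22 counts over the 2KO libraries, and both had 0 over the control libraries. Pooled over the group, Scn11a was thus at least 8.13-fold higher, against a floor of 3 counts over the control group. It reached no more than 0.627 CPM, with 5, 1 and 16 counts in 2KO replicates 1, 2 and 3. With no low-count filter Scn11a did not pass (edgeR adjusted p = 0.18). Scn3b had 5 counts in 2KO replicate 1 and 0 elsewhere, and Cacng2 3 counts in 2KO replicate 3 and 0 elsewhere.

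Markers of excitable and other cell types were summed list by list, to set their levels beside these rises. Skeletal muscle markers summed to 2.63 to 6.11 CPM in 2KO and 5.52 to 7.45 CPM in control libraries, with 12 of 14 under 1 CPM on average. Myod1 had 2 counts over the 2KO libraries and 0 over the control libraries. Actn2 (47 counts over the 2KO and 1 over the control libraries) and Chrna1 (10 and 2) were higher in 2KO without overlap. DESeq2 called 1 of this list higher, while the median log2 fold change of its tested members was -0.92. Neuron markers summed to 14.7 to 25.2 CPM in 2KO and 6.99 to 19.5 CPM in control libraries, and of 9 tested Uchl1 rose (6.92 ± 3.39 CPM in 2KO and 0.484 ± 0.308 CPM in control libraries, SD, n = 3 each, edgeR adjusted p = 0.00788). The median log2 fold change of the list was 1.42. Elavl3, Syn1, Rbfox3, Nefm, Tubb3 and Syp also had higher means in 2KO and did not pass. Snap25, Gap43 and the untested Syt1 had lower means. Without control replicate 3, 1 neuron marker was lower. Elavl4, Syp, Stmn2, Nefl, Nefm, Prph and Gap43 were under 1 CPM on average. Schwann cell markers were lower in 2KO, at 186 to 252 CPM, than in control libraries, at 268 to 515 CPM. No member passed with all libraries, and 1 was lower without 2KO replicate 1, with limma-voom and with no low-count filter, while DESeq2 had 1 higher.

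Merkel cell markers summed to 58.4 to 96.5 CPM in 2KO and 18.9 to 32.8 CPM in control libraries, with Krt18, a keratin of simple epithelia, and Piezo2, a mechanosensitive channel, past the threshold. These 2 genes carried the higher sum, and the median log2 fold change of the list was -0.51. Atoh1, the transcription factor that defines Merkel cells, was at 0, 0 and 0.196 CPM in 2KO and at 0.886, 3.49 and 0.229 CPM in control libraries. Krt20 (0.349 ± 0.251 CPM in 2KO and 2.06 ± 0.768 CPM in control libraries) and Pou4f3 (0.0798 ± 0.106 CPM in 2KO and 0.604 ± 0.0908 CPM in control libraries, SD, n = 3 each) lay lower in 2KO without overlap and did not pass, and Krt8, Rab3c and Isl1 also had lower means in 2KO. Smooth muscle and pericyte markers summed to 384 to 419 CPM in 2KO and 237 to 303 CPM in control libraries, without overlap, while the median log2 fold change of the list was -0.09. Most of that sum came from Cspg4 (204 ± 35.6 CPM in 2KO and 144 ± 39.6 CPM in control libraries) and Notch3 (170 ± 60.8 CPM in 2KO and 109 ± 36.7 CPM in control libraries, SD, n = 3 each), whose groups overlapped and which did not pass. Myh11, Rgs5, Cnn1, Kcnj8 and Abcc9 had lower means in 2KO and did not pass. Of the 10 tested members of the list Acta2 rose (12.0 ± 6.29 CPM in 2KO and 2.99 ± 0.798 CPM in control libraries, SD, n = 3 each, edgeR adjusted p = 0.0255), a call lost without any single library other than 2KO replicate 3. The sums of the lists for melanocytes (23.3 to 84.8 CPM in 2KO, 32.6 to 39.6 CPM in control libraries), dermal fibroblasts (1190 to 1500 CPM in 2KO, 1360 to 1590 CPM in control libraries), endothelium (4.54 to 18 CPM in 2KO, 6.33 to 13.7 CPM in control libraries) and immune cells (12.2 to 23.8 CPM in 2KO, 12.8 to 25.0 CPM in control libraries) overlapped. The endothelial marker Kdr lay higher in 2KO without overlap and did not pass (edgeR adjusted p = 0.0803). DESeq2 called 1 endothelial marker higher, while the median log2 fold change of that list was -0.15. Among fibroblast markers Pdgfra and Thy1 rose, and the call of Thy1 was lost without control replicate 1 (edgeR adjusted p = 0.0685) or 2 (0.0597) or 2KO replicate 1 (0.0552) or 2 (0.0752). Postn lay lower in 2KO without overlap and did not pass (453 ± 111 and 755 ± 104 CPM, edgeR adjusted p = 0.0598). Twist2, Lum, Dpt, Fbln1 and Col1a2 had lower means in 2KO, and Col1a1, Col3a1, Dcn and Vim higher ones. With DESeq2, limma-voom, no low-count filter or without 2KO replicate 2, 1 fibroblast marker was lower. The part of these cells in the channel results was not tested.

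Basal keratinocyte markers summed to 28500 to 33500 CPM in 2KO and 22300 to 32500 CPM in control libraries, and none of 10 passed, while DESeq2 and limma-voom each had 1 lower. Suprabasal markers summed to 1330 to 4040 CPM in 2KO and 3280 to 11900 CPM in control libraries, and none of 8 passed with all libraries. Without control replicate 1, 2 of them were lower in 2KO, as with DESeq2 and with no low-count filter, and limma-voom had 1 lower. Of 17 hair follicle markers 10 fell in 2KO-labelled libraries, against 2.42% called lower over all tested genes. Among them was Krt71, a keratin of the inner root sheath, at 0.270 ± 0.223 CPM in 2KO and 15.6 ± 4.93 CPM in control libraries (SD, n = 3 each, edgeR adjusted p = 0.001). Krt25, another inner root sheath keratin, had 0 counts in the 2KO libraries and was at 25.8, 10.6 and 18.7 CPM in the control libraries. Without control replicate 1, 6 follicle markers fell, and 5 fell with both replicate 3 libraries left out. The calls of Msx2, Hoxc13 and Dlx3 were lost in 5, 4 and 4 of the 6 fits that left out 1 library. Krt17, on the same list, lay higher in 2KO without overlap and did not pass (edgeR adjusted p = 0.0514). It averaged 790 ± 217 CPM in 2KO and 427 ± 85.8 CPM in control libraries (SD, n = 3 each). In several alternatives, among them DESeq2, limma-voom and no low-count filter, 1 follicle marker was called higher.

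Genes that bind or steer these channels were taken from a list of channel-binding modulators, of which 5 rose and 0 fell among 24 tested (median log2 fold change 0.50). Over all tested genes 6.61% were called higher and 2.42% lower, so that 0 falls among so few genes is no result about a list. Rims2, a scaffold of presynaptic active zones that binds calcium channels, was at 19.6, 15.3 and 9.45 CPM in 2KO and at 0.0355, 0.355 and 0 CPM in control libraries (log2 fold change 6.76, SE 0.89, edgeR adjusted p = 0.00219). Stac2, an adaptor of L-type channels, was at 24.6 ± 12.2 CPM in 2KO and 2.97 ± 1.49 CPM in control libraries (SD, n = 3 each, edgeR adjusted p = 0.00598). Ankyrins anchor sodium channels and exchangers at the membrane. Ank2 averaged 33.7 ± 16.7 CPM in 2KO and 7.91 ± 4.47 CPM in control libraries (edgeR adjusted p = 0.0281). Ank3 averaged 338 ± 60.9 CPM in 2KO and 203 ± 28.1 CPM in control libraries (edgeR adjusted p = 0.0387). Of the 6 fits that left out 1 library, only 2 kept the call of Ank2 and only 1 that of Ank3. The call of Ank3 was also lost with Xist as a covariate (edgeR adjusted p = 0.0559). Fgf11, an intracellular FGF-like protein that binds sodium channels, was at 45.3 ± 7.68 CPM in 2KO and 17.6 ± 5.14 CPM in control libraries. The number of risen modulators was 2 without control replicate 2, which took Fgf11 (edgeR adjusted p = 0.0507), Ank2 (0.0834) and Ank3 (0.147), and 3 without control replicate 3 or 2KO replicate 3. The calmodulin genes Calm2 and Calm3 did not pass.

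Calcium release and extrusion genes rose for 7 of 29 tested members and fell for none (median log2 fold change 0.35). The shares over all tested genes were 6.61% higher and 2.42% lower. Ryr2, the calcium release channel of heart and brain stores, was at 15.4, 13.8 and 17.7 CPM in 2KO and at 1.21, 1.39 and 0.948 CPM in control libraries (log2 fold change 3.73, SE 0.35, edgeR adjusted p = 0.000467). Ryr1, the release channel of skeletal muscle, was at 21.4 ± 1.54 CPM in 2KO and 5.58 ± 1.59 CPM in control libraries, and Itpr1, an IP3 receptor, at 26.1 ± 6.94 CPM in 2KO and 4.77 ± 2.85 CPM in control libraries (SD, n = 3 each). The sodium-calcium exchangers Slc8a3 and Slc8a1 rose with log2 fold changes of 4.15 and 1.85. Jph4, a junctophilin that holds stores against the surface membrane, was at 12.3, 19.4 and 7.80 CPM in 2KO and at 0.567, 0.742 and 1.50 CPM in control libraries. Jph1 stood at an edgeR adjusted p of 0.0499 and its call was lost when control replicate 1 or 3 or 2KO replicate 1 or 2 was left out. That of Slc8a3 was lost when control replicate 1 or 2KO replicate 2 or 3 was left out. The store-operated genes Stim1, Stim2, Orai1, Orai2 and Orai3 did not pass.

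Among calcium-dependent kinases, calcineurin subunits and NFAT factors, 6 of 24 tested genes rose and none fell (median log2 fold change 0.18). The shares over all tested genes were 6.61% higher and 2.42% lower. Camk2b, a subunit of the calmodulin-dependent kinase CaMKII, was at 7.56, 13.4 and 11.2 CPM in 2KO and at 0.745, 1.10 and 0.556 CPM in control libraries (log2 fold change 3.74, SE 0.46, edgeR adjusted p = 0.00159). Camk2d, the CaMKII subunit of heart and many tissues, was at 70.8 ± 10.5 CPM in 2KO and 26.9 ± 5.84 CPM in control libraries, and Camk1d at 281 ± 24.0 CPM in 2KO and 91.8 ± 37.4 CPM in control libraries (SD, n = 3 each). Camk4, Nfatc2 and Nfatc4 completed the list of rises, with log2 fold changes of 2.21, 3.63 and 1.40. The call of Camk4 was lost without control replicate 2 (edgeR adjusted p = 0.066) or 2KO replicate 1 (0.0594), and that of Nfatc4 without control replicate 1 (0.0546) or 3 (0.0739). No calcineurin subunit passed.

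Genes of the epithelial sodium channel, the sodium pump and other cation channels changed for 7 of 23 tested genes, 6 higher and 1 lower in 2KO (median log2 fold change 0.53). The shares over all tested genes were 6.61% higher and 2.42% lower. Piezo2 was at 42.8, 39.5 and 44.4 CPM in 2KO and at 9.33, 11.5 and 8.76 CPM in control libraries (log2 fold change 2.10, SE 0.23, edgeR adjusted p = 0.001). Atp1b1, a beta subunit of the sodium pump, was at 54.2 ± 3.41 CPM in 2KO and 16.3 ± 6.01 CPM in control libraries, whereas Atp1b3, another beta subunit, fell to 97.3 ± 8.72 CPM in 2KO, against 165 ± 38.5 CPM in control libraries (SD, n = 3 each). Trpc1, Piezo1, Asic1 and Trpv3, a warmth-gated channel of keratinocytes, rose with log2 fold changes of 3.34, 1.46, 1.55 and 1.06. These 4 calls were each lost without control replicate 1, so that 2 genes rose in that fit, and 3 rose without control replicate 2 or 3. The call of Atp1b3 was lost without control replicate 2 or 3 or any 2KO replicate (edgeR adjusted p = 0.0838 to 0.16). Scnn1a, Scnn1b and Scnn1g, subunits of the epithelial sodium channel ENaC, did not pass.

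**Figure D5:**
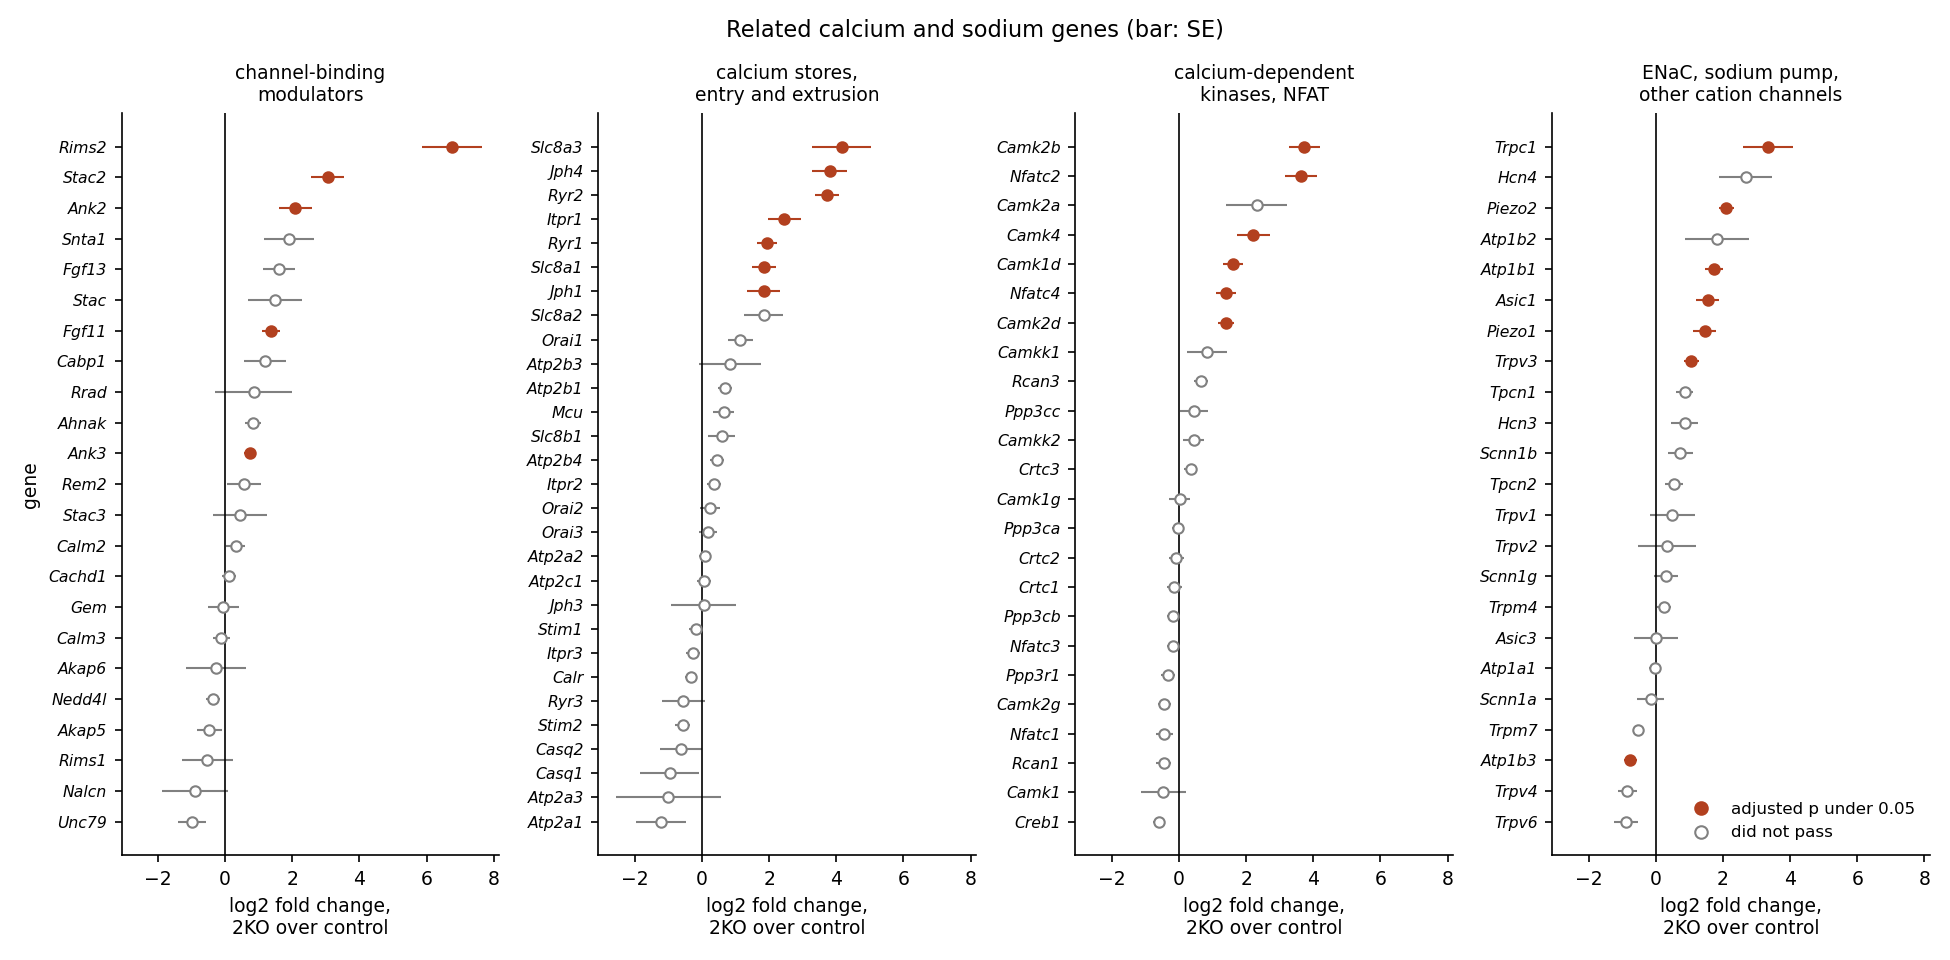
Log2 fold change of 2KO over control, with SE, for tested genes of 4 related lists, filled where the adjusted p was under 0.05. The lists hold 5, 7, 6 and 6 genes that rose, led by Rims2 (6.76), Slc8a3 (4.15), Camk2b (3.74) and Trpc1 (3.34), and 1 that fell (Atp1b3, -0.76).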

How the data were processed

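The deposited files hold the authors' counts, whole numbers of reads per gene symbol, not normalized, for 6 libraries. Starting from 10 ng of RNA, cDNA was amplified and read as single reads of 100 nt, per the labels' protocols, which name no molecular identifiers, so that intervals and floors cover counting error only. The submitters' processing notes name mm10, HTSeq 0.6.1, TopHat2 2.0.13, DESeq2 1.6.3 and Cufflinks 2.2.1. Annotation, strand setting and filters were not given in the sources used here. Without a strand setting, genes that overlap on opposite strands cannot be told apart, and reads shared by close paralogs may have been dropped or split. Genes were kept by filterByExpr (0.345 CPM in at least 3 libraries), scaled by TMM and compared by edgeR 4.0.16 (glmQLFit, glmQLFTest, R 4.3.3) with no covariate, and p-values were adjusted over all 14972 tested genes. DESeq2 1.42.0 and limma 3.58.1 (voom) served as alternatives. The SE is the log2 fold change over the square root of F. Lengths and coordinates come from GENCODE vM21 (97.1% of symbols matched 1 gene). Members and lists were chosen with earlier results of these data known. Full values are given for members past the threshold, for those without overlap between groups at a mean of at least 1 CPM, and for the 8 highest per kilobase, and up to 6 genes past the threshold are named per related list. Scn2b, Cacna1a, Cacna1e, the members too low to test, Jph1 and the genes named as not passing in the related lists lie beyond that rule, chosen after their values were seen. A few genes that enter the counts are not reported here.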

Additional observations from a re-analysis of the deposited data

How the results depend on the processing

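The 15 log2 fold changes of channel genes followed kept their sign in all 15 alternatives. Of these comparisons 205 stayed on their side of the threshold, 15 calls were lost and 5 were gained. The number of channel genes higher in 2KO ranged from 9 to 11 when 1 library was left out and was 7 with both replicate 3 libraries left out, while the number lower stayed at 0. Over all tested genes it ranged from 615 to 854 higher and from 184 to 347 lower with 1 library left out, and was 1497 and 771 with DESeq2 and 309 and 72 with both replicate 3 libraries left out. With Xist as a covariate 237 genes were lower. With 1 library left out, 2 to 5 channel-binding modulators were higher and 0 to 1 lower, 5 to 7 calcium store genes were higher, 5 to 6 calcium-dependent kinase and NFAT genes higher and 0 to 1 lower, and 2 to 5 pump and cation genes higher and 0 to 1 lower. With both replicate 3 libraries left out the higher counts of these 4 lists were 2, 2, 2 and 1, and no pump or cation gene was lower (0, and 0 with Xist as a covariate). DESeq2 called 1 modulator, 1 kinase or NFAT gene and 2 pump and cation genes lower, limma-voom 1 kinase or NFAT gene, and the fit with no low-count filter 1 modulator. Fewer libraries lower the power of a fit, and beyond that the cause was not tested. With the longest transcript as gene length the same 8 members led per kilobase. Libraries of the same replicate number had correlations of deviations of 0.29, 0.09 and -0.08 for numbers 1, 2 and 3. Unlike numbers gave -0.27 to 0.21, and so few values cannot settle whether the numbers pair the libraries. With replicate number as a block 12 channel genes were higher and 0 lower, Cacnb1 being added. Over all tested genes that fit called 1142 higher and 540 lower, against 989 and 362 without the block. Depth limits the 18 untested members, at most 1.02 CPM in any library.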
